A study of Mus musculus with 2 samples.

Results

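Enteroendocrine cells are rare, scattered cells of the gut epithelium that sense the contents of the lumen and release peptide hormones or serotonin. They arise in the crypts from secretory progenitors that switch on the transcription factor NEUROG3, and they pack their products into dense-core granules with chromogranins and prohormone-processing enzymes. Described here are 32 genes of these cells, of the 27275 genes in the table. They were listed by symbol, with earlier results of these data known. They fall into 12 gut hormones and transmitters, 12 granule and processing proteins and 8 lineage factors, and all 32 had a row in the table. Reg4, which other secretory cells also make, was left out.

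The tissue was small intestine of naive mice, with 1 library for the knockout (KO, genotype Spibfl/flVillin-Cre) and 1 for the animals labelled WT (genotype Spib+Villin-Cre). Villin-Cre acts in intestinal epithelium, so that the floxed Spib gene, which encodes an ETS family transcription factor, is removed there, and both genotype labels name the Cre. The labels give no strain, sex or age, and they do not say whether animals were pooled. Values are FPKM, read numbers scaled to gene length and library depth, so that levels can be set side by side between genes. As each genotype has a single library, there is no spread between replicates and no test, and each difference below is one between these libraries.

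Depth and tissue markers frame every value below. The implied library totals were 17658566 reads for KO and 17425640 reads for WT. Spib itself had 0.592 FPKM in the KO library, against 4.94 FPKM in the WT library, a difference of 8.34-fold whose counting interval runs from 5.70 to 12.6. The design text calls the tissue proximal, yet genes of the distal small intestine were abundant in both libraries. The ileal bile acid-binding protein gene Fabp6 had 1735 FPKM in KO and 2030 FPKM in WT, and the ileal bile acid transporter gene Slc10a2 had 92.1 FPKM in KO and 92.6 FPKM in WT. The duodenal factor Pdx1 had 1 read in KO and 4 in WT. Gata4, a factor of the upper and middle small intestine, was also present, at 17.2 FPKM in KO and 15.7 FPKM in WT. Markers of some other cells differed more than most enteroendocrine genes did. None of the 8 enterocyte genes or the 5 stem cell genes was past 2-fold on the log2 scale given below. The 10 tuft cell genes summed to 88.1 FPKM in KO and 19.8 FPKM in WT, the 7 B cell and follicle genes to 12.3 FPKM in KO and 32.1 FPKM in WT, and the 7 plasma cell genes to 524 FPKM in KO and 2002 FPKM in WT. In whole tissue, fewer cells of a type and less RNA per cell cannot be told apart, and the part of these other cells in the values below was not tested.

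Most enteroendocrine genes had similar levels in both libraries, as did most genes compared. The ones that differed were mostly lower in KO, and among all genes compared more were lower than higher too. No member was at least 2-fold higher or lower in KO on the scale log2((KO FPKM + 1) / (WT FPKM + 1)), which is the log2 ratio used below. Among the 13479 genes with at least 1 FPKM in either library, 1.61% were at least 2-fold higher and 2.51% at least 2-fold lower. At these shares, a count of 0 says little about the members. Without the pseudocount, Scg5 was 2.21-fold and Fev 2.75-fold lower in KO. Pax4, with 0 reads in KO, was 2.70-fold lower against a floor of 3 reads, with a counting interval that begins at 1.73-fold. The log2 ratios of the 32 members ran from -0.76 for Pyy to 0.28 for Scg2. Their median was -0.0057 over all 32, and -0.059 over the 21 that reached 1 FPKM, against -0.049 over all genes compared. Together the members summed to 302 FPKM in KO and 342 FPKM in WT.

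Read numbers recovered from the FPKM gave each plain fold an exact counting interval at 95%, which covers the sampling of reads and not the difference between mice. The interval lay below equality for 9 members and above it for 2. It held equality for 20, and Gast had no reads. Among the 13405 genes of at least 1 FPKM with read numbers, 27.3% had an interval below equality and 16.6% above it. Of the 21 members at that level, 7 (33.3%) lay below and 2 (9.52%) above. Among the 7, Scg5 reached 1 FPKM only in WT, the library where it was higher. The share below is near that of all genes. The 9 lower ones were Sct, Gip, Pyy, Nts, Tac1, Chga, Scg5, Fev and Pax4, and the 2 higher ones were Scg2 and Cpe.

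**Figure D1:**
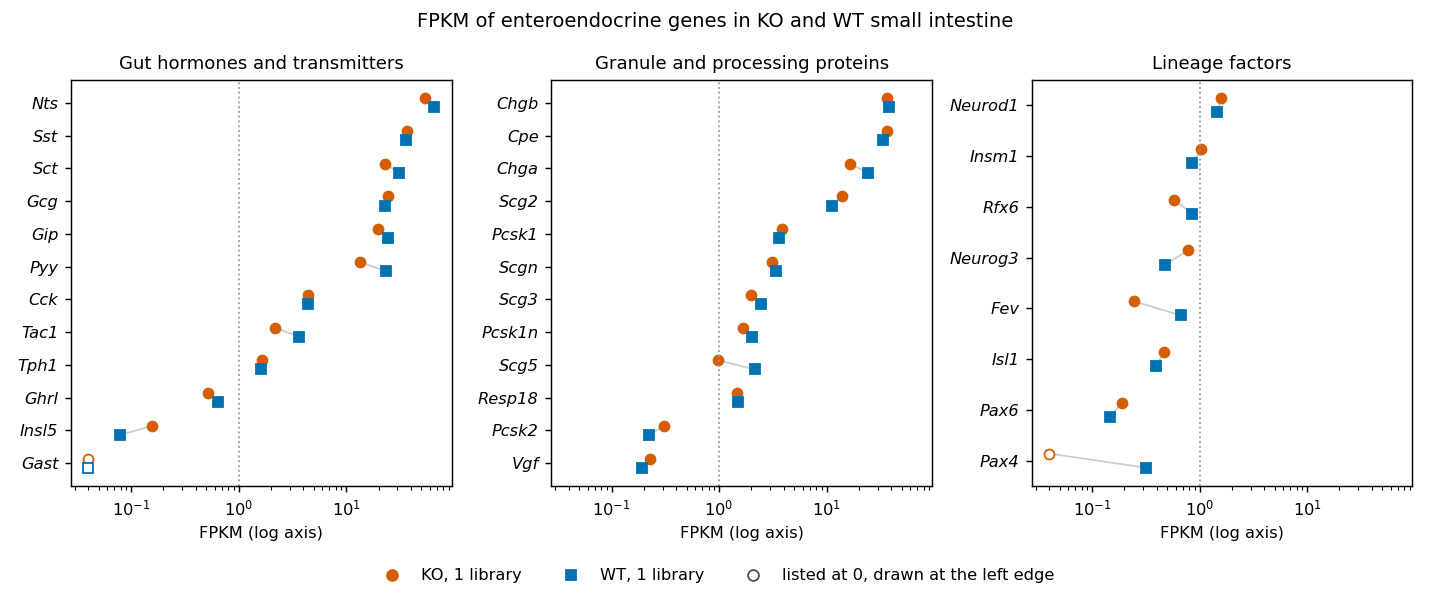
FPKM of each of the 32 genes (log axis) in the KO library (orange circles) and the WT library (blue squares), with 1 library each, ordered by mean level within 3 classes; open symbols mark genes listed at 0 and the dotted line marks 1 FPKM. Hormones and granule proteins span from 65.9 FPKM down to 0, while the lineage factors lie at or below 1.598 FPKM.

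The promoters of Pyy, Gcg, Sct and Chga are shown because these genes part from each other in the values below, with Pyy, Sct and Chga lower in KO and Gcg level. Each sequence is the 250 bases before the RefSeq start on the strand of the gene, from RefSeq on GRCm38.p6, the same assembly as mm10. The RefSeq start of Chga, at 102554941, lies before its GENCODE start at 102554969. Capitals mark E-boxes, the motif CANNTG that basic helix-loop-helix factors such as NEUROG3 and NEUROD1 bind, which reads the same on both strands. They lie at chr11:102107833-102108082 (minus strand), chr2:62483654-62483903 (minus strand), chr7:141279134-141279383 (minus strand) and chr12:102554691-102554940 (plus strand).
Pyy: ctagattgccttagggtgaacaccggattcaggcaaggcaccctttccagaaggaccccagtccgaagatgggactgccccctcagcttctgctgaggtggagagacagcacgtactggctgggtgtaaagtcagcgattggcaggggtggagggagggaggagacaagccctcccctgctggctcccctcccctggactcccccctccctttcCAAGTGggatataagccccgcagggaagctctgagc
Gcg: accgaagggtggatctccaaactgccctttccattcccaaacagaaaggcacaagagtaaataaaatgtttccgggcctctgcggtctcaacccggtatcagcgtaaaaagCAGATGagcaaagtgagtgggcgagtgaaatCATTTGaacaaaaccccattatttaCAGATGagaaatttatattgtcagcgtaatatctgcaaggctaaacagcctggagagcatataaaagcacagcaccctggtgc
Sct: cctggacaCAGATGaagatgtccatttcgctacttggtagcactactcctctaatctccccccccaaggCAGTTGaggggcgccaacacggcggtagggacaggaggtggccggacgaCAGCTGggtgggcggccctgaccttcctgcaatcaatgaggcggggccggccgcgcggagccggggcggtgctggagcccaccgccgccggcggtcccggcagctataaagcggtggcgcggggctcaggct
Chga: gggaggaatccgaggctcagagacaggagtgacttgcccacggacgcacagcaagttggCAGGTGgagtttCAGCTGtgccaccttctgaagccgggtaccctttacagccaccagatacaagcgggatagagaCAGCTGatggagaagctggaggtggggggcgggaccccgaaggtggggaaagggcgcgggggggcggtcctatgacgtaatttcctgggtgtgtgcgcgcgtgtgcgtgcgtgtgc
Pyy had 1 E-box in this window and the other 3 had 3 each. Both CAGATG boxes of Gcg, at 139 and 83 bases before the start, have the letters of the box that Sct carries at 242 bases. Promoters were held for 28 member genes, and 21 of their first-listed promoters (75%) had an E-box, against 66.2% of all 32851 promoters of this length. The motif GAGGAA, a core to which SPI-B and related ETS factors bind, was searched on both strands and was found in 4 of the 28 member promoters (14.3%), those of Chga, Gast, Neurod1 and Tph1, against 23.3% of all promoters. Of those 4, Chga was lower in KO, Tph1 and Neurod1 were not, and Gast had no reads. These matches describe letters in a window and not bound sites.

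Among the hormones, neurotensin and somatostatin led both libraries. Nts, which encodes neurotensin, a peptide of distal enteroendocrine cells that slows motility and aids fat uptake (chromosome 10, 102481756 to 102490486, minus strand), had 53.8 FPKM in KO and 65.9 FPKM in WT. That is 1.23-fold lower in KO, with a counting interval of 1.13 to 1.32 from 1186 reads in KO and 1434 in WT. Sst, the inhibitory peptide of D cells (chromosome 16, 23889573 to 23890958, minus strand), had 36.5 FPKM in KO and 36.4 FPKM in WT, a fold of 1.002 with an interval of 0.868 to 1.16. Its transcript is the second most abundant hormone in both libraries, and it did not follow Nts. Enteric neurons make somatostatin too.

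Secretin and GIP, hormones of the upper gut, were both modestly lower. Sct encodes secretin, which draws bicarbonate from the pancreas (chromosome 7, 141278330 to 141279133, minus strand). It had 22.8 FPKM in KO and 31.3 FPKM in WT, 1.37-fold lower with an interval of 1.17 to 1.62. Gip, the incretin of K cells (chromosome 11, 96024545 to 96030831, plus strand), had 19.7 FPKM in KO and 24.3 FPKM in WT, 1.23-fold lower with an interval of 1.04 to 1.47. This last difference was not beyond counting error once the libraries were scaled to a median ratio of 1 over all genes. The ratio of Sct to Gip was 1.16 in KO and 1.29 in WT, with intervals of 0.968 to 1.39 in KO and 1.10 to 1.51 in WT that overlap.

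The L cell hormones parted. Pyy encodes peptide YY, which slows the upper gut and curbs food intake (chromosome 11, 102106676 to 102107832, minus strand). It had 13.4 FPKM in KO and 23.4 FPKM in WT, from 149 reads in KO and 257 in WT. At 1.75-fold lower (interval 1.42 to 2.15) it had the lowest log2 ratio of the 32 genes, -0.76. Gcg, whose precursor is cut into GLP-1 and GLP-2 in the gut (chromosome 2, 62474530 to 62483650, minus strand), had 24.5 FPKM in KO and 23.2 FPKM in WT, a fold of 1.06 with an interval of 0.945 to 1.18. Set against Gcg in the same library, Pyy stood at 0.546 in KO (interval 0.454 to 0.654) and at 1.01 in WT (0.869 to 1.17), so that the intervals do not overlap. Nts over Gcg was 2.198 in KO (1.995 to 2.42) and 2.85 in WT (2.59 to 3.14). These ratios within a library do not depend on its depth, and the 8 pairs examined were chosen after the values were seen. Insl5, an L cell hormone mainly of the colon, had 2 reads in KO and 1 in WT.

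In the enterochromaffin pair, Tac1 was lower and Tph1 was level. Tac1 encodes the precursor of substance P, made by enterochromaffin cells and by enteric neurons (chromosome 6, 7554879 to 7565834, plus strand). Its level was 2.199 FPKM in KO and 3.61 FPKM in WT, 1.64-fold lower (1.32 to 2.06) from 132 reads in KO and 214 in WT. Tph1, the rate-limiting enzyme of serotonin synthesis outside neurons, which mast cells also use, had 1.64 FPKM in KO and 1.61 FPKM in WT (fold 1.02, interval 0.824 to 1.27). Tac1 over Tph1 was 1.34 in KO (1.06 to 1.69) and 2.25 in WT (1.83 to 2.76). The 9 mast cell genes measured, none at 0 in both libraries, summed to 22.8 FPKM in KO and 7.94 FPKM in WT. The mast cell protease gene Cpa3 was low, at 0.336 FPKM in KO and 0.189 FPKM in WT. The chymase genes Mcpt1 and Mcpt2 of mucosal mast cells, close relatives that can share reads, were both at least 2-fold higher in KO, with 8.98 and 4.20 FPKM in KO against 1.79 and 1.06 FPKM in WT, and the part of mast cells in the Tph1 value was not tested.

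The remaining hormones were low or absent. Cck, the hormone of I cells that empties the gallbladder (chromosome 9, 121489824 to 121495694, minus strand), had 4.43 FPKM in KO and 4.40 FPKM in WT, with an interval of the fold from 0.756 to 1.34. Ghrl, which encodes ghrelin, had 10 reads in KO and 12 in WT, and its interval of 0.318 to 2.08 allows a difference of 2-fold in either direction. Gast, the gastrin gene of the stomach antrum, had no reads in either library. A floor of 3 reads allows it up to 0.369 FPKM in KO and 0.374 FPKM in WT. Among stomach genes, Gkn1 was also listed at 0 in both libraries, while Tff2 had 0 reads in KO and 25 reads in WT.

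**Figure D2:**
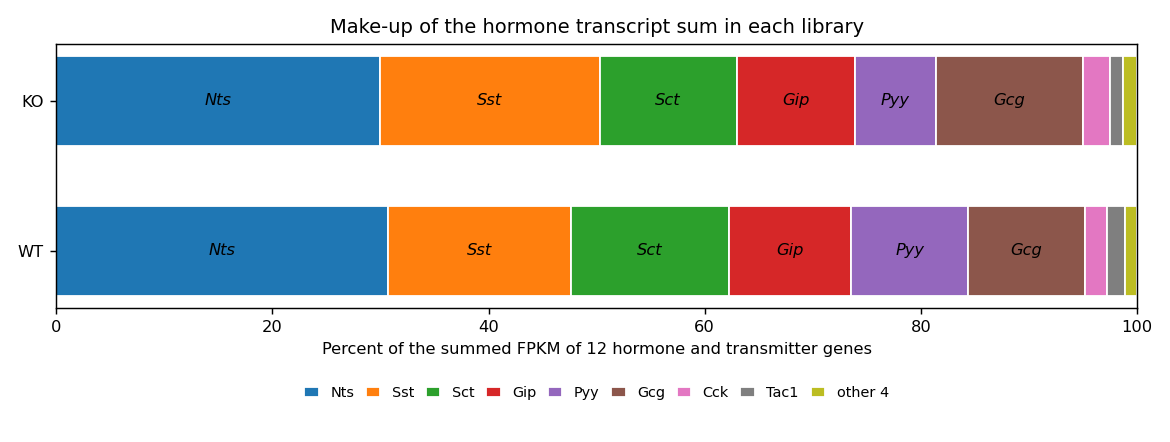
Share of each gene in the summed FPKM of the 12 hormone and transmitter genes, in percent, for the KO library (upper bar) and the WT library (lower bar). Nts made up 29.96% in KO and 30.7% in WT, and the Pyy block was narrower in KO while the Sst and Gcg blocks were wider.

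As a whole, the 12 hormone and transmitter genes summed to 180 FPKM in KO and 215 FPKM in WT, 1.20-fold lower and a log2 ratio of -0.26. The median log2 ratio was -0.29 over the 9 genes that reached 1 FPKM and -0.052 over all 12. Their intervals lay below equality for 5 genes and above it for none. Over the 9 at 1 FPKM, 55.6% lay below, against 27.3% of all genes compared. The make-up of the sum shifted little. Nts, Gcg and Pyy together held 51.0% in KO and 52.4% in WT, and Sct, Gip, Cck and Ghrl together held 26.4% in KO and 28.2% in WT. Sst held 20.3% in KO and 16.9% in WT, Gcg 13.6% in KO and 10.8% in WT, and Pyy 7.44% in KO and 10.9% in WT. Gcg ranked 3 among the hormones in KO and 6 in WT, where Gip, Pyy and Gcg lay close, at 24.3, 23.4 and 23.2 FPKM. The counting interval of the Gcg fold itself held equality.

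Among the granins, Chga was lower in KO, Scg2 was higher, and the counting intervals of Chgb and Scg3 held equality. Chga encodes chromogranin A, which drives granule formation and is the standard marker of enteroendocrine cells (chromosome 12, 102554969 to 102565028, plus strand). It had 16.6 FPKM in KO and 24.1 FPKM in WT, 1.45-fold lower (interval 1.32 to 1.59) from 809 reads in KO and 1158 in WT. Chgb, chromogranin B, the most abundant granin here (chromosome 2, 132781278 to 132795079, plus strand), had 36.5 FPKM in KO and 38.1 FPKM in WT, and its interval from 0.898 to 1.02 holds equality. Chga over Chgb was 0.455 in KO (0.418 to 0.495) and 0.633 in WT (0.588 to 0.682). Secretogranin II (Scg2) went the other way, at 13.8 FPKM in KO and 11.2 FPKM in WT, 1.23-fold higher (1.09 to 1.39). Secretogranin III (Scg3), which sorts granins to the granule membrane, had 1.965 FPKM in KO and 2.45 FPKM in WT (fold interval 0.605 to 1.06).

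The processing enzymes were level or slightly higher in KO. Cpe, carboxypeptidase E, trims basic residues from cut prohormones and had 36.8 FPKM in KO and 33.5 FPKM in WT, 1.10-fold higher (1.02 to 1.18). Pcsk1, the main prohormone convertase of gut endocrine cells, had 3.84 FPKM in KO and 3.63 FPKM in WT (fold interval 0.914 to 1.23). Its inhibitor proSAAS, encoded by Pcsk1n, had 1.68 FPKM in KO and 2.01 FPKM in WT (0.589 to 1.17). Pcsk2, the second convertase, was low at 0.308 FPKM in KO and 0.225 FPKM in WT (0.843 to 2.25). Scg5 encodes 7B2, the chaperone that PCSK2 needs to become active (chromosome 2, 113776362 to 113829121, minus strand). It had 0.975 FPKM in KO and 2.16 FPKM in WT, 2.21-fold lower (1.38 to 3.63) from 27 reads in KO and 59 in WT. Scg5 over Pcsk2 was accordingly 3.17 in KO (1.88 to 5.24) and 9.60 in WT (6.11 to 15.3). Scg5 reached 1 FPKM only in WT, and its log2 ratio of -0.68 is smaller than its plain fold because of the pseudocount of 1.

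The last 3 granule genes gave no difference beyond counting error. Scgn, the calcium sensor secretagogin, had 3.11 FPKM in KO and 3.37 FPKM in WT (fold interval 0.684 to 1.248). Resp18, an endocrine granule protein, had 27 reads in each library (0.557 to 1.75). Vgf, a neurosecretory precursor, had 12 reads in KO and 10 in WT. Over the 12 genes of the class, the summed FPKM was 117 in KO and 122 in WT, a log2 ratio of -0.061, and the median log2 ratio was -0.073 over the 10 that reached 1 FPKM and -0.035 over all 12. Enteric neurons share several of these granule genes. The 15 enteric neuron markers summed to 32.6 FPKM in KO and 28.3 FPKM in WT, none was at 0 and none was past 2-fold on the log2 ratio. Their counting intervals lay above equality for 5 (Chat, Nefl, Nefm, Nos1 and Snap25) and below it for none. Of the 9 that reached 1 FPKM, 22.2% lay above, near the 16.6% of all genes compared, and 0% below, against 27.3%. The 2 above, Chat and Snap25, reached 1 FPKM only in KO, so the filter took them in through the library where they were higher. The plain fold of Chat, given below, was above 2. Exons of Nefl and Nefm overlap each other. The most abundant were Vip, a neuropeptide with 9.37 FPKM in KO and 8.97 FPKM in WT, and the intermediate filament gene Prph, with 4.34 FPKM in KO and 3.88 FPKM in WT. The neuronal part of the granule gene values was not tested.

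**Figure D3:**
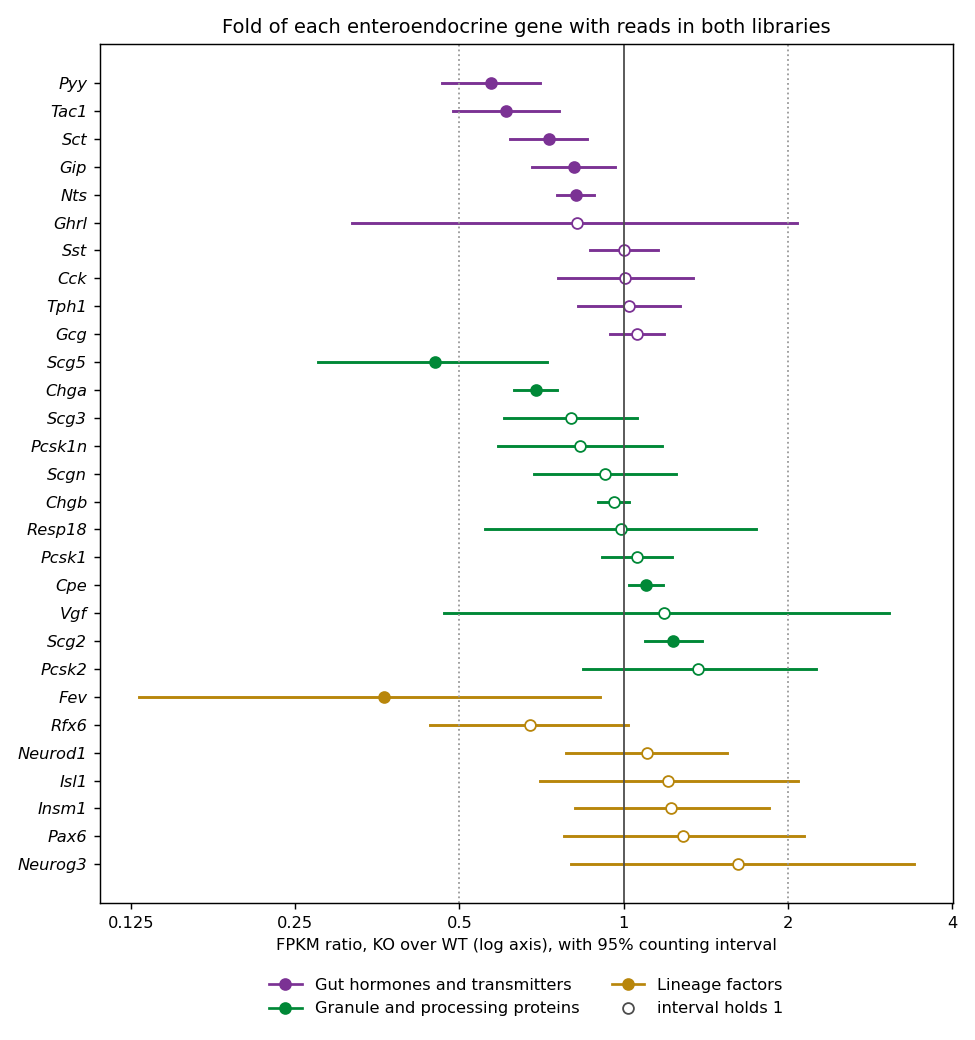
FPKM ratio of KO over WT (log axis) for the 29 genes with reads in both libraries and more than 3 reads in at least 1, with exact 95% counting intervals; filled points have an interval that leaves out 1, and dotted lines mark 2-fold. Pyy lies lowest among the hormones at 0.572, and Sst at 1.002 and Gcg at 1.06 hold equality.

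Lineage factors were low, and only Neurod1 reached 1 FPKM in both libraries. Neurog3, the factor that commits crypt progenitors to the endocrine fate (chromosome 10, 62133090 to 62134763, plus strand), had 0.778 FPKM in KO and 0.480 FPKM in WT, from 23 reads in KO and 14 in WT. Its fold of 1.62 has an interval of 0.799 to 3.41, so that no difference was detectable at this depth. Neurod1, its target that carries the programme on (chromosome 2, 79452521 to 79456751, minus strand), had 1.598 FPKM in KO and 1.45 FPKM in WT (0.785 to 1.55). Insm1, a zinc finger factor of endocrine differentiation, had 1.04 FPKM in KO and 0.852 FPKM in WT (0.815 to 1.84).

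Fev and Pax4 were lower in KO, from few reads. Fev is an ETS family factor, like Spib, and marks enterochromaffin precursors and serotonergic neurons (chromosome 1, 74881509 to 74885419, minus strand). It had 7 reads in KO and 19 in WT, or 0.245 FPKM in KO and 0.674 FPKM in WT, 2.75-fold lower with an interval of 1.11 to 7.74. Pax4, a paired-box factor of early endocrine progenitors (chromosome 6, 28442334 to 28449353, minus strand), had 0 reads in KO and 8 in WT. It was 2.70-fold lower when the KO library is set at a floor of 3 reads. The exact interval begins at 1.73-fold. Neither gene reached 1 FPKM in either library, so neither entered the comparison across all genes.

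Rfx6, Pax6 and Isl1 gave no difference beyond counting error. Rfx6, which maintains hormone expression in mature endocrine cells, had 41 reads in KO and 60 in WT (fold 0.674, interval 0.442 to 1.02). Pax6, a factor of Gcg-expressing and other endocrine cells, had 39 reads in KO and 30 in WT (0.777 to 2.14). Isl1, a LIM homeobox factor of several hormone lineages, had 33 reads in KO and 27 in WT (0.703 to 2.09). The 8 factors summed to 4.90 FPKM in KO and 5.17 FPKM in WT. Their median log2 ratio was 0.066 over all 8. The 2 that reached 1 FPKM, Neurod1 and Insm1, had 0.084 and 0.14, and Insm1 passed that filter only through its KO value.

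**Figure D4:**
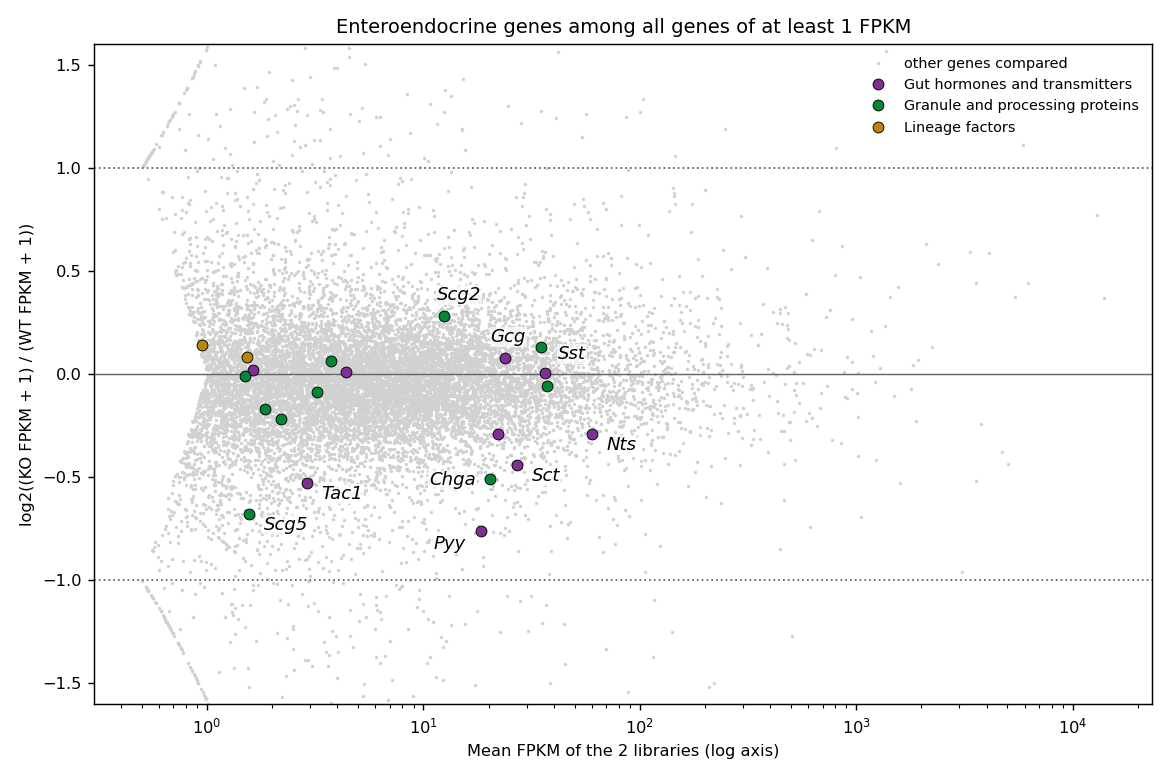
Log2 ratio on the scale log2((KO FPKM + 1) / (WT FPKM + 1)) against mean FPKM (log axis) for genes of at least 1 FPKM in either library, with the 21 enteroendocrine genes among them coloured by class and some named; 205 other genes lie outside the plotted range of 1.6 in either direction. All 21 lie within the dotted lines at 2-fold, with Pyy lowest at -0.76.

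Beyond these 32 genes, other genes linked to these cells were listed, some of which other cells make too. These lists held few genes past 2-fold. Few of all genes compared were past it either, with 1.61% higher and 2.51% lower. Of 15 other enteroendocrine factors, none was past 2-fold, and the sum was 36.3 FPKM in KO and 33.1 FPKM in WT. The most abundant were Atoh1, the factor of all secretory lineages, with 17.6 FPKM in KO and 14.2 FPKM in WT, and Foxa1, with 8.10 FPKM in KO and 7.97 FPKM in WT. Of 24 genes of granule exocytosis and amine handling none was past 2-fold. Counting intervals lay above equality for 6 of these and below it for 2. Over the 19 that reached 1 FPKM, that is 31.6% above and 5.26% below, against 16.6% and 27.3% of all genes compared. Of these, Snap25, above, reached 1 FPKM only in KO, and Stx1a, below, only in WT. The sum of all 24 was 99.1 FPKM in KO and 91.0 FPKM in WT. Ddc, which makes serotonin and dopamine from their amino acid precursors, had 19.2 FPKM in KO and 16.4 FPKM in WT, and Cpd, a relative of Cpe, had 29.7 FPKM in both. Absorptive enterocytes express Ddc as well.

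The 12 other products measured, mostly peptides, summed to 24.3 FPKM in KO and 17.1 FPKM in WT, 1.42-fold higher. Which cells these transcripts came from was not tested, and the products are not specific to enteroendocrine cells. Counting intervals lay above equality for 4 of the 12, Nmu, Gal, Penk and Adm, and below it for none. Of the 7 that reached 1 FPKM, that is 57.1% above, against 16.6% of all genes compared. The median log2 ratio was 0.38 over those 7 and 0.20 over all 12. Penk, the enkephalin precursor, had 2.18 FPKM in KO and 1.44 FPKM in WT (fold 1.52, 1.01 to 2.30), and Adm, adrenomedullin, had 2.13 FPKM in KO and 1.35 FPKM in WT (fold 1.58, 1.04 to 2.44). Nmu was the single gene of the list past 2-fold. It encodes neuromedin U, which enteric neurons release to act on innate lymphoid cells. Its level was 4.10 FPKM in KO and 1.11 FPKM in WT, 3.70-fold higher (2.10 to 6.88) from 60 reads in KO and 16 in WT, with a log2 ratio of 1.27. Galanin (Gal), the most abundant of the list, had 7.32 FPKM in KO and 5.24 FPKM in WT, 1.40-fold higher (1.01 to 1.95), and the retinol carrier gene Rbp4 had 2.93 FPKM in KO and 2.43 FPKM in WT. Beside Nmu, the cholinergic gene Chat, which neurons and tuft cells both express, had 1.07 FPKM in KO and 0.225 FPKM in WT (fold 4.75, 2.45 to 10.1). The neuronal nitric oxide synthase gene Nos1 had 0.797 FPKM in KO and 0.551 FPKM in WT (fold 1.45, 1.13 to 1.87). Penk, Adm, Chat and Nos1 were picked for mention after their values were seen.

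The nutrient and bile acid sensors differed in both directions at low levels, with none of 16 past 2-fold on the log2 ratio. Ffar4, a receptor for long-chain fatty acids, had 1.67 FPKM in KO and 3.58 FPKM in WT, a plain fold of 0.465 (0.313 to 0.682). Ffar2, a receptor for short-chain fatty acids that leukocytes and endocrine cells express, had 2.37 FPKM in KO and 1.52 FPKM in WT (fold 1.56, 1.16 to 2.12). Its relative Ffar3, picked after its values were seen, had 2.42 FPKM in KO and 0.838 FPKM in WT (fold 2.89, 1.84 to 4.65). Mc4r was listed at 0 in both libraries.

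**Figure D5:**
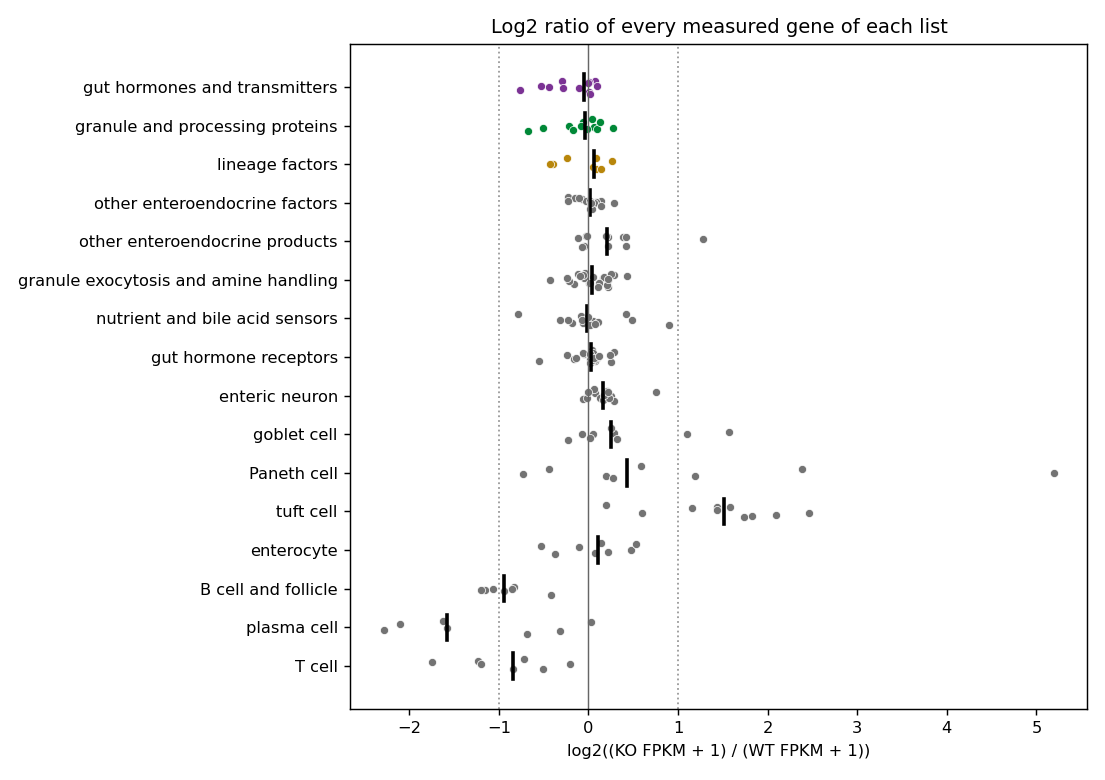
Log2 ratio on the scale log2((KO FPKM + 1) / (WT FPKM + 1)) of every measured gene (points) in 16 lists, with the list median as a black bar and dotted lines at 2-fold; enteroendocrine classes are coloured. The medians of the 3 enteroendocrine classes are -0.052, -0.035 and 0.066 over all measured genes, and that of the hormones is -0.29 over the 9 that reached 1 FPKM, while the tuft cell list centres at 1.51 and the plasma cell list at -1.58.

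Other epithelial lineages are given for scale only, since the difference between lists was not tested. The 9 goblet cell genes had a median log2 ratio of 0.25, with Clca1 and Spink4 past 2-fold higher. Their counting intervals lay above equality for 6 (66.7%) and below it for 2 (22.2%), against 16.6% and 27.3% of all genes compared. The 8 Paneth cell genes had a median of 0.43, with Ang4, Mptx1 and Clps past 2-fold higher. Lyz1 and Pla2g2a of the same list were lower, with folds of 0.739 (0.732 to 0.745) and 0.593 (0.528 to 0.666). The 8 enterocyte genes had a median of 0.10 with none past 2-fold. Against these, the hormone, granule and factor medians over all measured genes were -0.052, -0.035 and 0.066. Over genes that reached 1 FPKM the hormone median was -0.29 and the granule median -0.073, and the pseudocount holds Gast, Insl5 and Ghrl near 0. The insulin genes of pancreatic islets, Ins1 and Ins2, were at 0 in both libraries. The 8 pancreatic acinar genes were low but not absent, with sums of 4.05 FPKM in KO and 9.04 FPKM in WT. The source of these acinar reads was not tested.

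The precision of single values followed read number and gene overlap. In total, 20 of the 32 members had more than 100 reads over both libraries, and the range per library was 0 to 1767 reads in KO and 0 to 1818 reads in WT. Exons of Neurod1, Neurog3, Pcsk1n, Ghrl, Pcsk2 and Resp18 overlap exons of another annotated gene, and the sources used here do not state how strand was treated in counting, so reads of these neighbours could not be separated. The members lie on 14 chromosomes, with 7 of them on chromosome 2. Those 7 are Gcg, Neurod1, Pax6, Scg5, Chgb, Pcsk2 and Insm1, of which Scg5 alone had a counting interval that left out equality.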

How the data were processed

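RNA of small intestine tissue was taken up in TRIzol and its cDNA amplified with SMART-SeqII, per the labels' protocols. The authors deposited 1 table of FPKM values, with 1 column per library. Per the submitters' processing notes, which give no roles, Bowtie2 2.2.3, HTSeq 0.6.0 and build mm10 were used. No source used here states the annotation, strand setting, filters or pooling.

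Columns were matched to libraries by title. Gene identifiers were joined to GENCODE M21 (the same assembly as mm10), which held 27222 of 27275, and coordinates come from it, counted from 1. Log2 ratios use a pseudocount of 1 FPKM and understate the difference of low genes. Genes of at least 1 FPKM in either library (13479) were compared, and past 2-fold refers to the log2 ratio. Folds are plain FPKM ratios.

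FPKM multiplied by summed exon length stepped in whole reads, within 0.01, for 90.7% of the KO values above 0 and 90.6% of the WT values, which gave the library totals. Read numbers followed for 31 of the 32 members. Sst took the smallest whole-number length that makes both read numbers whole, as did 1563 of the compared genes, whose true read numbers may be larger, and 74 compared genes had none. Fold intervals derive from the KO share of the reads of a gene (Clopper-Pearson, exact, 95%). They and the floor of 3 reads cover counting error only, and amplified reads that carry no molecular identifier can be copies of 1 molecule. The recovery of reads was tested on simulated data.

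With 1 library per genotype no test was made. The members and lists were chosen with earlier results of these data known. Named are all members, Spib, and, of the 21 other lists, chiefly genes past 2-fold, the 2 most abundant of a list and markers at 0, with others said to be picked later. For 5 listed symbols no row was found, and they were not analysed here. Python 3.11.15, numpy 2.4.6, pandas 2.3.3, scipy 1.17.1 and matplotlib 3.10.9 were used.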

Additional observations from a re-analysis of the deposited data

How the results depend on the processing

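No paired analysis was possible because each genotype has 1 library, and for the same reason no replicate could be left out. Pseudocounts of 0.1 and 5, no filter on low values, a minimum of 5 FPKM, and a rescaling to a median ratio of 1 were tried. No member was at least 2-fold higher under any of these. The count at least 2-fold lower was 0 except with a pseudocount of 0.1, where it was 1 (Scg5), and with that pseudocount Fev and Pax4, which the filter leaves out, also passed 2-fold. The plain ratio of KO over WT had a median of 0.961 over all genes. Rescaling by it brought the summed granule proteins to a log2 ratio of -0.0042, against -0.061 as deposited, and turned the sign of Resp18 alone. Members with a counting interval below equality numbered 8 after rescaling, against 9, since Gip then held equality, and 2 stayed above; this alternative was chosen after seeing the data. The median of the lineage factors rests on 2 genes, and it was 0.20 and 0.039 with pseudocounts of 0.1 and 5, 0.066 without a filter and 0.14 after rescaling, against 0.11. At 5 FPKM no lineage factor was left. Hormone sums and medians stayed below 0 under each alternative, from -0.29 to -0.052. The granule median was 0.037 at a minimum of 5 FPKM. The cause of these shifts was not tested beyond their construction. Depth limits the members with few reads. Of the intervals that hold equality, those of Neurog3, Pax6, Isl1, Rfx6, Ghrl, Insl5, Vgf and Pcsk2 allow differences above 2-fold.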

Other observations

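Receptors of the gut hormones were low in this tissue, and none of 22 was past 2-fold. Their sum was 11.99 FPKM in KO and 11.8 FPKM in WT. The most abundant were Glp2r, the GLP-2 receptor of subepithelial cells and enteric neurons, with 3.43 FPKM in KO and 3.16 FPKM in WT, and Htr3a, a serotonin-gated channel subunit, with 1.74 FPKM in KO and 1.32 FPKM in WT. The somatostatin receptor gene Sstr1, picked after its values were seen, had 0.913 FPKM in KO and 1.795 FPKM in WT, a plain fold of 0.509 (counting interval 0.324 to 0.786), while Sst itself was level.

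Genes tied to position along the gut differed in part. Slc40a1, the iron exporter of the duodenum, had 3.41 FPKM in KO and 8.75 FPKM in WT, 2.57-fold lower (2.32 to 2.84). The distal homeobox gene Hoxb9 had 3.04 FPKM in KO and 5.35 FPKM in WT, 1.76-fold lower (1.42 to 2.19). The 8 distal markers measured summed to 2910 FPKM in KO and 3213 FPKM in WT, and the 8 proximal markers to 1730 FPKM in KO and 1094 FPKM in WT. The proximal sum leans on abundant genes, with a highest value of 853 FPKM in KO and 493 FPKM in WT. Median log2 ratios were -0.21 for the distal list and 0.13 for the proximal list. With 1 library per genotype, genotype and position along the gut cannot be told apart in these hormone levels.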
